A study of Homo sapiens with 6 samples.

Results

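Ribosome biogenesis and rRNA processing genes were followed in PC-3, a human cell line derived from a bone metastasis of a prostate carcinoma. The 45 genes were chosen by name as known factors of this pathway, out of 58302 genes in the deposited count table, and all 45 were tested. The 3 BHLHE22 libraries came from PC-3 cells that received a lentivirus overexpressing BHLHE22, which encodes a DNA-binding protein of the basic helix-loop-helix (bHLH) family. The 3 vector libraries came from PC-3 cells with a blank lentivirus. The labels give no promoter, dose or time after infection, and do not say whether the 3 libraries of a group were separate cultures, so p-values measure only the spread between libraries, which may be technical.

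Ribosomes are built in the nucleolus, where RNA polymerase I copies the ribosomal DNA into one long precursor RNA. Small nucleolar ribonucleoproteins (snoRNPs) guide the chemical modification of this precursor, the small-subunit processome folds and cuts its first part, and a separate set of assembly factors builds the large subunit from the rest. The demand for these factors follows cell growth, and many of their genes are known targets of the growth regulator MYC, another bHLH protein.

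Library totals lay between 12186723 and 15949537 counts. BHLHE22 had 98, 92 and 133 counts in the BHLHE22 libraries and 1 count in each vector library. All 4 epithelial markers were present, and they did not move one way. In CPM (counts scaled to library size), KRT8 had 159 ± 6.43 in BHLHE22 and 198 ± 18.9 in vector libraries, and KRT18 had 117 ± 19.7 and 153 ± 12.2 in the same order (SD, n = 3 each). Both keratin genes were called lower, EPCAM was called higher, at 55.1 ± 4.48 and 24.4 ± 3.46 CPM, and CDH1 was not called, at 53.5 ± 6.54 and 60.8 ± 1.60 CPM. KLK3, the gene of prostate-specific antigen, had 0 counts in all 6. Of 5 blood-cell marker genes, 4 of leukocytes and the red-cell gene HBB, only LCP1, which carcinoma lines can also express, had more than 2 counts in any library, with 240.4 to 260.0 CPM in BHLHE22 libraries and 117 to 128 CPM in vector libraries. TYROBP, CD3E and HBB were at 0 in all 6 libraries and PTPRC at 0 to 2 counts. The summed level of the 5 was 240.5 to 260.0 CPM in BHLHE22 and 117 to 128 CPM in vector libraries. Of 6 fibroblast and endothelial markers, PECAM1 and LUM were tested, the other 4 had at most 9 counts in any library. PECAM1 was called lower, at 23.1 ± 3.63 CPM in BHLHE22 and 55.7 ± 7.81 CPM in vector libraries, and LUM higher, at 1.94 ± 0.219 and 0.437 ± 0.286 CPM in the same order (SD, n = 3 each). The summed level of the 6, nearly all PECAM1, was 21.6 to 28.8 CPM in BHLHE22 and 50.4 to 65.6 CPM in vector libraries. The part of these markers in the results below was not tested.

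Most ribosome biogenesis genes were higher in BHLHE22 cells, and none was called lower. Of the 45 genes, 36 (80.0%) rose, 0 fell and 9 did not pass the test, which was edgeR's quasi-likelihood test with a call at a Benjamini-Hochberg adjusted p under 0.05 over all 15945 tested genes. Across all tested genes, 49.4% were called, 25.1% higher and 24.3% lower. The count of members lower was also 0 at an unadjusted p under 0.05, with DESeq2 and with limma-voom. The median log2 fold change of the members was 0.69, a 1.61-fold higher level, against 0.0038 for all tested genes. The members ranged from -0.08 for UBTF to 1.26 for RRS1, and 42 of 45 had a value above 0, against 50.4% of all tested genes. For 36 members the 3 BHLHE22 libraries all lay above the 3 vector libraries, against 30.6% of all tested genes, and these are the 36 that were called. For 0 members they all lay below, against 29.9% of all tested genes. A rise of at least 2-fold was found for 7 members, NOP56, POLR1A, RRP9, WDR3, NAT10, BOP1 and RRS1, against 8.17% of all tested genes. In bulk RNA such as this, more cells of a kind and more RNA per cell cannot be told apart. All fold changes are relative to the typical gene: with unscaled library sizes the median of all genes was 0.15 and that of the members 0.83.

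**Figure D1:**
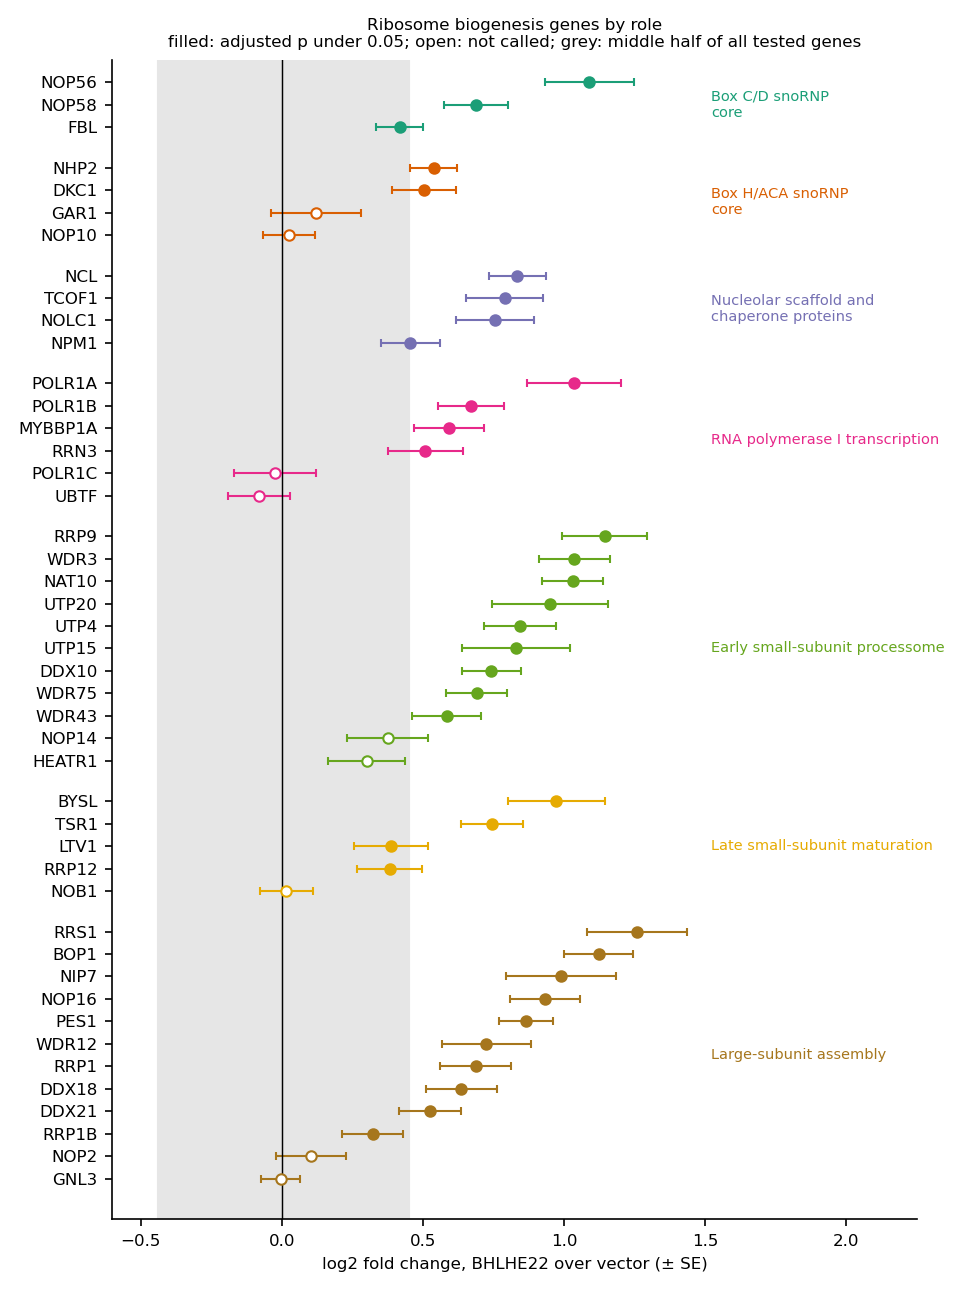
Log2 fold change (BHLHE22 over vector) of each of the 45 genes with its standard error, grouped by role; filled points were called at an adjusted p under 0.05, open points were not, and the grey band runs from the lower to the upper quartile of all tested genes. The 36 filled points all lie to the right of 0, from 0.32 for RRP1B to 1.26 for RRS1, and each role has filled points.

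The start sites of these genes were searched for the E-box CACGTG, the sequence bound by MYC with its partner MAX and by several other bHLH proteins, and for CATATG, the E-box form bound by BHLHE22 and its OLIG relatives. RefSeq windows (GRCh38.p14) running from 250 bases before to 50 bases after a start were found for 37 of the 45 members. BOP1, DDX18, NOLC1, NOP58, RRP12, RRP1B, RRS1 and TCOF1 have none here. Both motifs read the same on both strands and do not overlap each other. CACGTG was found in the windows of 16 of 37 members (43.2%), against 12.5% of the 10496 tested genes with a window and 8.77% of all 27305 genes with one. In the 250 bases before the start the share was near the background, 5 of 37 members (13.5%) against 11.2% of tested genes. In the 50 bases after the start it was 10 of 37 members (27.0%), against 1.45% of tested genes. CATATG was in 0 of 37 member windows, against 2.18% of tested genes, which says only that these letters are not in these windows. CACGTG was in 11 of 28 members that rose (39.3%) and in 5 of 9 that were not called (55.6%). This difference was not tested. The members were chosen as pathway genes, so these shares describe the pathway's start sites and are not a test of any factor.

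Short stretches around the motif are shown for 5 members that rose and for the 5 not called that hold one, as the motif occurs in both. Each runs 5′ to 3′ on the gene's own strand, with the E-box in capitals. The first group, from members that rose, lies between 5 bases before and 29 bases after the start.
RRP9 (chr3:51941894-51941919, minus strand): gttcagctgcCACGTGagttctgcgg
BYSL (chr6:41921517-41921542, plus strand): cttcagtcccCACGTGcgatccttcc
PES1 (chr22:30591882-30591907, minus strand): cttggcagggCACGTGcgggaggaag
WDR43 (chr2:28894660-28894685, plus strand): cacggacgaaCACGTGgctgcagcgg
FBL (chr19:39846358-39846383, minus strand): cgctcttttcCACGTGcgaaagcccc
The second group comes from members that were not called.
NOP14 (chr4:2963376-2963401, minus strand): cgcggcccggCACGTGtcttagggta
GAR1 (chr4:109815783-109815808, plus strand): gccagaggggCACGTGgcgccggtga
NOP2 (chr12:6568242-6568266, minus strand): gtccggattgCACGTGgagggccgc
NOP10 (chr15:34343132-34343157, minus strand): aattgacgaaCACGTGacgcggtcgg
GNL3 (chr3:52686028-52686053, plus strand): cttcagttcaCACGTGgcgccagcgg

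In NAT10, UTP20 and UTP4 the motif lies wholly before the start, beginning 15, 10 and 16 bases upstream of it. These have the largest rises among members with a whole CACGTG in the 250 bases before the start, which are printed in full, again with the E-box in capitals. Of the printed bases, 55.6% in NAT10, 47.6% in UTP20 and 78.8% in UTP4 are G or C.
NAT10 (chr11:34105379-34105628, plus strand): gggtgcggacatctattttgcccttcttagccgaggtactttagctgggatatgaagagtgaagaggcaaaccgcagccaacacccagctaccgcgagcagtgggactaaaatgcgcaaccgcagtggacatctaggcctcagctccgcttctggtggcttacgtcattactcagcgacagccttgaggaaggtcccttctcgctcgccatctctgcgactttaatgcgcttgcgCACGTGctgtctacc
UTP20 (chr12:101279855-101280104, plus strand): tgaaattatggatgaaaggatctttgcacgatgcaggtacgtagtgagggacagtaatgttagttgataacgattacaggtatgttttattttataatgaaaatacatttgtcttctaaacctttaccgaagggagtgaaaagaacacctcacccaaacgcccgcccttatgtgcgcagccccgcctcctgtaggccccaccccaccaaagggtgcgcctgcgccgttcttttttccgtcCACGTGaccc
UTP4 (chr16:69132399-69132648, plus strand): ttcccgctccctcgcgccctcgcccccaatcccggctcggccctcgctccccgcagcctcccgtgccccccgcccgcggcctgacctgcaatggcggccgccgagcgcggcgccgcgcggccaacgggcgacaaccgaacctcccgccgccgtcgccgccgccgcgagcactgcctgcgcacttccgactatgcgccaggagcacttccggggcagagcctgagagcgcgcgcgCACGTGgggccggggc

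**Figure D2:**
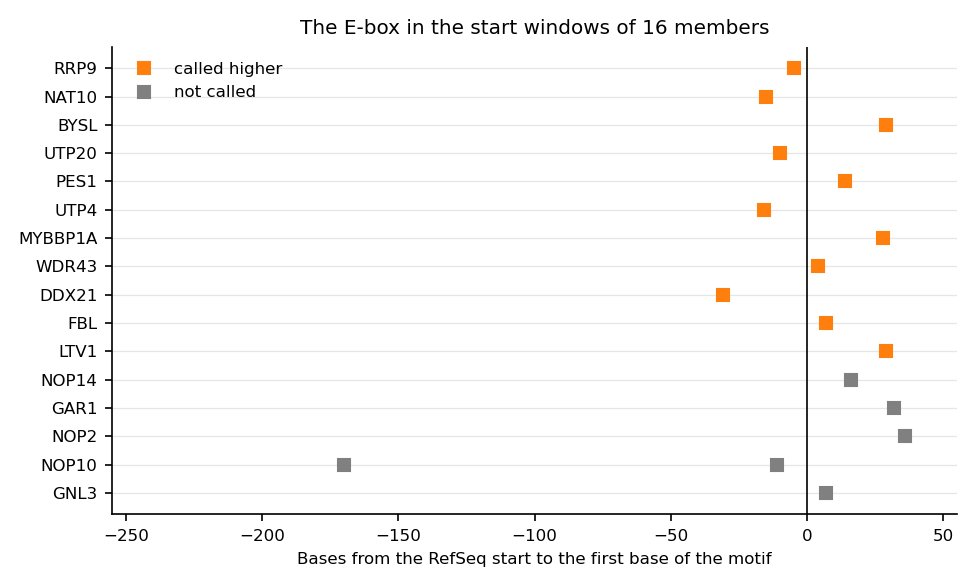
Position of the first base of each CACGTG in the RefSeq start windows of the 16 members that hold one, in bases from the start; members run from the largest log2 fold change at the top to the smallest at the bottom. Of 17 sites, 16 begin between 31 bases before and 36 bases after the start, and NOP10 has the remaining one 170 bases before it.

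The box C/D snoRNP genes rose together. These particles place methyl groups on the ribose of rRNA. NOP56, a core scaffold protein of the particle (ENSG00000101361, chromosome 20, 2652145 to 2658393), had 148, 178 and 206 CPM in BHLHE22 libraries, against 82.1, 70.1 and 97.8 CPM in vector libraries. The lowest BHLHE22 library lay well above the highest vector library, and the log2 fold change was 1.09 (SE 0.16, adjusted p = 0.00129, edgeR quasi-likelihood). Its partner NOP58 had 65.6, 67.8 and 78.5 CPM in BHLHE22 libraries, against 42.6, 40.3 and 48.7 CPM in vector libraries. The NOP58 groups did not overlap, with a log2 fold change of 0.69 (SE 0.11, adjusted p = 0.00203, edgeR). FBL, the methyltransferase of the particle, rose less, to 112 ± 6.59 CPM in BHLHE22 cells, against 84.2 ± 4.01 CPM in vector cells (SD, n = 3 each; log2 fold change 0.42).

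Among the 4 proteins of the box H/ACA snoRNP, which turns uridines of rRNA into pseudouridine, 2 rose and 2 did not pass. NHP2, an RNA-binding subunit, had 111, 115 and 114 CPM in BHLHE22 libraries, against 77.4, 72.6 and 84.1 CPM in vector libraries (log2 fold change 0.54, SE 0.08, adjusted p = 0.00162, edgeR). Exons of RMND5B on the opposite strand cover 27.4% of the exonic bases of NHP2, and whether counting kept strand is not stated in the labels. DKC1, the pseudouridine synthase itself, had 77.8, 88.4 and 100.1 CPM in BHLHE22 libraries, against 65.6, 57.1 and 65.3 CPM in vector libraries. These groups also stood apart, with a log2 fold change of 0.50 (SE 0.11, adjusted p = 0.00827, edgeR). The small subunits NOP10 and GAR1 overlapped between groups. NOP10 had 105 ± 10.3 CPM in BHLHE22 and 103 ± 2.88 CPM in vector cells, and GAR1 had 24.9 ± 3.42 and 22.9 ± 3.83 CPM in the same order (SD, n = 3 each; adjusted p = 0.834 and 0.561, edgeR).

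All 4 nucleolar scaffold and chaperone genes rose. NCL, the gene of the abundant rRNA-binding protein nucleolin (ENSG00000115053, chromosome 2, 231453531 to 231483641), had 649.7, 705 and 789 CPM in BHLHE22 libraries, against 409.6, 363 and 428 CPM in vector libraries. This is a log2 fold change of 0.83 (SE 0.10, adjusted p = 0.000600, edgeR), with a wide gap between the groups. TCOF1 encodes treacle, which holds RNA polymerase I and snoRNPs in the nucleolus. It had 161, 178 and 214 CPM in BHLHE22 libraries, against 118, 111 and 91.0 CPM in vector libraries (log2 fold change 0.79, SE 0.14, adjusted p = 0.00267, edgeR). NOLC1, a snoRNP chaperone, rose to 158 ± 29.7 CPM in BHLHE22 cells, against 93.7 ± 4.63 CPM in vector cells (SD, n = 3 each). NPM1, the gene of the histone and ribosome chaperone nucleophosmin, had 589, 665 and 726 CPM in BHLHE22 libraries, against 481, 439 and 525 CPM in vector libraries. Its log2 fold change was 0.46 (SE 0.10, adjusted p = 0.00868, edgeR). NPM1 reads are uncertain, because 45 pseudogenes named after it held 63.5% as many reads as the gene itself. With those reads added, the level was 1072 ± 107 CPM in BHLHE22 and 795 ± 62.9 CPM in vector cells (SD, n = 3 each), and the log2 fold change was 0.43 (adjusted p = 0.00899, edgeR).

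Of the 6 genes of RNA polymerase I transcription, 4 rose and 2 did not pass. POLR1A, the largest subunit of the enzyme (ENSG00000068654, chromosome 2, 86020216 to 86106155), had 120.0, 148 and 185 CPM in BHLHE22 libraries, against 77.8, 63.3 and 79.9 CPM in vector libraries. Its spread within the BHLHE22 group was wide, yet the groups stayed apart (log2 fold change 1.04, SE 0.17, adjusted p = 0.00217, edgeR). POLR1B, which forms the active centre with POLR1A, had 71.1, 74.4 and 84.1 CPM in BHLHE22 libraries, against 46.0, 43.5 and 54.8 CPM in vector libraries (log2 fold change 0.67, SE 0.12, adjusted p = 0.00267, edgeR). POLR1C, a subunit shared with RNA polymerase III, had 14.3, 18.9 and 18.6 CPM in BHLHE22 libraries, against 19.1, 16.2 and 17.5 CPM in vector libraries. These values interleave, with a log2 fold change of -0.02 (SE 0.14, adjusted p = 0.904, edgeR). Exons of YIPF3 on the opposite strand cover 4.26% of the exonic bases of POLR1C. YIPF3 held 7905 counts over all 6 libraries, against 1496 for POLR1C, and the part of its reads in the POLR1C count was not tested.

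Of the factors that load the polymerase, RRN3, which makes it competent to start, rose to 19.1 ± 2.31 CPM in BHLHE22 cells, against 13.4 ± 0.996 CPM in vector cells (SD, n = 3 each; log2 fold change 0.51, adjusted p = 0.0152, edgeR). Its call ended without BHLHE22 replicate 2 (adjusted p = 0.0548, edgeR) or vector replicate 1 (adjusted p = 0.0551, edgeR). With the reads of its 3 named pseudogenes added, RRN3 had a log2 fold change of 0.46 (adjusted p = 0.0351, edgeR). UBTF, which keeps ribosomal DNA in an open state, had 130.0, 151 and 168 CPM in BHLHE22 libraries, against 171, 149 and 155 CPM in vector libraries. It did not pass (log2 fold change -0.08, SE 0.11, adjusted p = 0.567, edgeR). Apart from these factors, the role lists MYBBP1A, the gene of a nucleolar MYB-binding protein. MYBBP1A rose to 58.7 ± 8.63 CPM in BHLHE22 cells, against 38.9 ± 2.82 CPM in vector cells (SD, n = 3 each). These are RNA levels of the genes, and the output of RNA polymerase I was not tested.

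The early small-subunit processome had 9 of 11 genes higher and 2 that did not pass. RRP9, a protein of the snoRNP that starts the cutting of the precursor (ENSG00000114767, chromosome 3, 51933430 to 51941941), had 47.4, 58.5 and 69.9 CPM in BHLHE22 libraries, against 28.5, 24.5 and 26.6 CPM in vector libraries. Its log2 fold change of 1.14 (SE 0.15, adjusted p = 0.000846, edgeR) was the largest of this role. WDR3, of the processome's UTP-B complex, had 89.0, 97.0 and 113 CPM in BHLHE22 libraries, against 46.4, 44.3 and 55.1 CPM in vector libraries (log2 fold change 1.04, SE 0.12, adjusted p = 0.000597, edgeR). NAT10, the enzyme that acetylates cytidines of small-subunit rRNA, stood at 120.0 ± 13.1 CPM in BHLHE22 cells, against 58.7 ± 4.65 CPM in vector cells (SD, n = 3 each). It had the smallest adjusted p of the 45 genes (0.000365, edgeR, log2 fold change 1.03).

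Within the UTP-A complex, which binds the start of the precursor, 4 genes rose and HEATR1 did not pass. Log2 fold changes were 0.84 for UTP4, 0.83 for UTP15, 0.69 for WDR75 and 0.58 for WDR43. HEATR1 had 76.1, 87.8 and 93.2 CPM in BHLHE22 libraries, against 67.3, 59.3 and 82.1 CPM in vector libraries. Vector replicate 3 overlapped the BHLHE22 libraries (log2 fold change 0.30, adjusted p = 0.102, edgeR), and without that library the value was 0.44 and passed (adjusted p = 0.0224, edgeR). Exons of LGALS8 on the opposite strand cover 23.2% of the exonic bases of HEATR1. UTP20, a large scaffold protein, and the helicase gene DDX10 rose by 0.95 and 0.74. NOP14 had 50.4, 62.3 and 72.4 CPM in BHLHE22 libraries, against 52.1, 47.1 and 43.6 CPM in vector libraries. Only BHLHE22 replicate 1 fell among the vector values; the adjusted p was 0.0604 with it and 0.0149 without it (edgeR, log2 fold change 0.38 and 0.51).

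Later steps of the small subunit, which take place in the nucleus and cytoplasm, had 4 of 5 genes higher. BYSL, the gene of bystin, had 25.5, 30.8 and 26.1 CPM in BHLHE22 libraries, against 15.0, 10.8 and 16.2 CPM in vector libraries. This is a log2 fold change of 0.97 (SE 0.17, adjusted p = 0.00276, edgeR) at a low level. TSR1, which keeps the immature subunit from translating, had 106, 106 and 126 CPM in BHLHE22 libraries, against 65.4, 61.8 and 74.2 CPM in vector libraries (log2 fold change 0.74, SE 0.11, adjusted p = 0.00125, edgeR). Exons of SGSM2 and SRR on the opposite strand cover 20.8% of its exonic bases. NOB1, the nuclease that makes the last cut of the small-subunit rRNA, had 45.3, 43.7 and 41.4 CPM in BHLHE22 libraries, against 40.5, 46.0 and 42.4 CPM in vector libraries, and did not pass (adjusted p = 0.9, edgeR).

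The export factors RRP12 and LTV1 rose least in this role, with log2 fold changes of 0.38 and 0.39 (adjusted p = 0.0253 and 0.0398, edgeR). Neither call was firm. That of RRP12 ended without BHLHE22 replicate 2 or 3 or vector replicate 2 or 3 (adjusted p = 0.0626, 0.0699, 0.0561 and 0.0596, edgeR), and with the replicate number as a block (0.0557). That of LTV1 ended without BHLHE22 replicate 2 or 3 or vector replicate 1 or 2 (adjusted p = 0.0755, 0.114, 0.104 and 0.111, edgeR). The count for late small-subunit maturation was therefore 2 of 5 without BHLHE22 replicate 2 or 3 or vector replicate 2. Of all tested genes, 19.6%, 20.9% and 20.5% were called higher in those settings, against 25.1% with all 6 libraries.

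Large-subunit assembly had 10 of 12 genes higher and 2 that did not pass. RRS1, which helps to bring the small ribosomal RNA of the large subunit into place (ENSG00000179041, chromosome 8, 66429028 to 66430733), had 37.8, 46.6 and 60.3 CPM in BHLHE22 libraries, against 20.1, 18.4 and 22 CPM in vector libraries. Its log2 fold change of 1.26 (SE 0.18, adjusted p = 0.00109, edgeR) was the largest of the 45 genes. BOP1, which forms the PeBoW complex with PES1 and WDR12 (ENSG00000261236, chromosome 8, 144262102 to 144291370), had 109, 129 and 147 CPM in BHLHE22 libraries, against 61.1, 54.3 and 61.1 CPM in vector libraries (log2 fold change 1.12, SE 0.12, adjusted p = 0.000405, edgeR). All 3 PeBoW genes rose, PES1 by 0.87 and WDR12 by 0.72. NIP7 and NOP16, assembly factors of the pre-large subunit, rose by 0.99 and 0.93. The opposite-strand gene COG8 covers 12.4% of the exonic bases of NIP7, and HIGD2A and ARL10 cover 20% of those of NOP16.

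The RNA helicase genes DDX18 and DDX21 rose by 0.64 and 0.53, with DDX21 at 417 ± 54.2 CPM in BHLHE22 cells, against 289.9 ± 22 CPM in vector cells (SD, n = 3 each). The paralogs RRP1 and RRP1B, both on chromosome 21, had log2 fold changes of 0.69 and 0.32. The call of RRP1B (adjusted p = 0.0388, edgeR) ended without BHLHE22 replicate 2 or 3 or vector replicate 1 or 2 (adjusted p = 0.0783, 0.0984, 0.105 and 0.101, edgeR). NOP2, a methyltransferase of large-subunit rRNA, had 44.2, 46.2 and 55.6 CPM in BHLHE22 libraries, against 45.8, 49.7 and 40.4 CPM in vector libraries. It did not pass (log2 fold change 0.10, adjusted p = 0.517, edgeR). GNL3, the gene of the nucleolar GTPase nucleostemin, had 223, 227 and 217 CPM in BHLHE22 libraries, against 217, 223 and 229 CPM in vector libraries. The 6 GNL3 values lie within a few percent of each other, with a log2 fold change of -0.0039 (SE 0.07, adjusted p = 0.970, edgeR).

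Levels scaled to length spanned a wide range, and the member highest on that scale, NOP10, was among those not called. In the authors' deposited FPKM (fragments per kilobase of gene, scaled to library total), NOP10 stood highest, with 118, 117 and 99.3 FPKM in BHLHE22 libraries, against 102, 94.7 and 99.7 FPKM in vector libraries. NPM1 followed, at 105 ± 11.1 FPKM in BHLHE22 and 69.5 ± 8.04 FPKM in vector libraries (SD, n = 3 each). NCL came next with 75 ± 7.52 FPKM in BHLHE22 and 38.1 ± 4.17 FPKM in vector libraries. In CPM, which takes no account of length, NCL and NPM1 stood well above NOP10 in both groups. The FPKM order leaves out the NPM1 pseudogene reads, 63.5% as many as the gene's own, so the order of NOP10 and NPM1 is uncertain. By the mean over all 6 libraries POLR1C and UTP15 stood lowest, although RRN3 lay below UTP15 in BHLHE22 libraries (3.43 ± 0.414 FPKM) and below POLR1C in vector libraries (2.18 ± 0.213 FPKM), where NIP7 also did (2.44 ± 0.577 FPKM; SD, n = 3 each). POLR1C was at 2.71 ± 0.405 FPKM in BHLHE22 and 2.5 ± 0.245 FPKM in vector libraries. UTP15 had 3.67, 3.74 and 3.65 FPKM in BHLHE22 libraries, against 1.34, 1.86 and 2.42 FPKM in vector libraries. Its BHLHE22 values lay close together and its vector values did not. Its call ended without BHLHE22 replicate 3 and vector replicate 2 together (adjusted p = 0.0782, edgeR). The FPKM columns carry no TMM scaling, so their ratios lie above the fold changes given here.

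**Figure D3:**
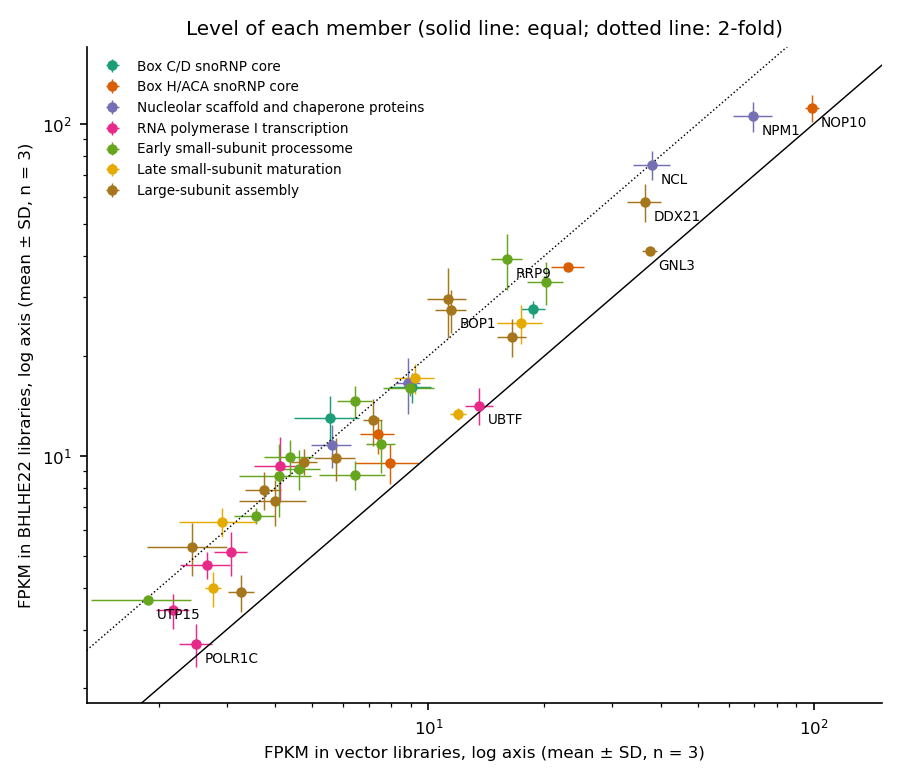
Deposited FPKM of each member in BHLHE22 libraries (vertical) against vector libraries (horizontal), both on log axes, as mean ± SD of 3 libraries; the solid line marks equal levels and the dotted line a 2-fold higher level in BHLHE22 libraries. RRP9, at 39.0 in BHLHE22 and 16 in vector libraries, lies above the dotted line, while NOP10, GNL3, UBTF and POLR1C lie close to the solid one.

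The members also moved together among replicates of the same group. BHLHE22 replicate 1 was the lowest of its group for 39 of 45 members and replicate 3 the highest for 37, against 37.2% and 37.1% of all tested genes. Among vector libraries, replicate 2 was lowest for 36 members and replicate 3 highest for 32, against 36.3% and 36.9% of all tested genes. The summed level of the 45 genes was 4978, 5537 and 6214 CPM in BHLHE22 replicates 1 to 3, and 3718, 3452 and 3937 CPM in the vector replicates. The lowest BHLHE22 sum thus stood above the highest vector sum. BHLHE22 replicate 1 also had the fewest counts of the 6 libraries (12186723) and replicate 3 the most of its group (15808990), whereas vector replicate 2, low for most members, had the most of all (15949537). The part of depth in this order was not tested. An alternative chosen after seeing the data left out BHLHE22 replicate 3 and vector replicate 2 together. There 31 of 45 members rose, against a background of 18.1% of all tested genes, and 0 fell, against 17.9%. The median log2 fold change of the members was 0.53.

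**Figure D4:**
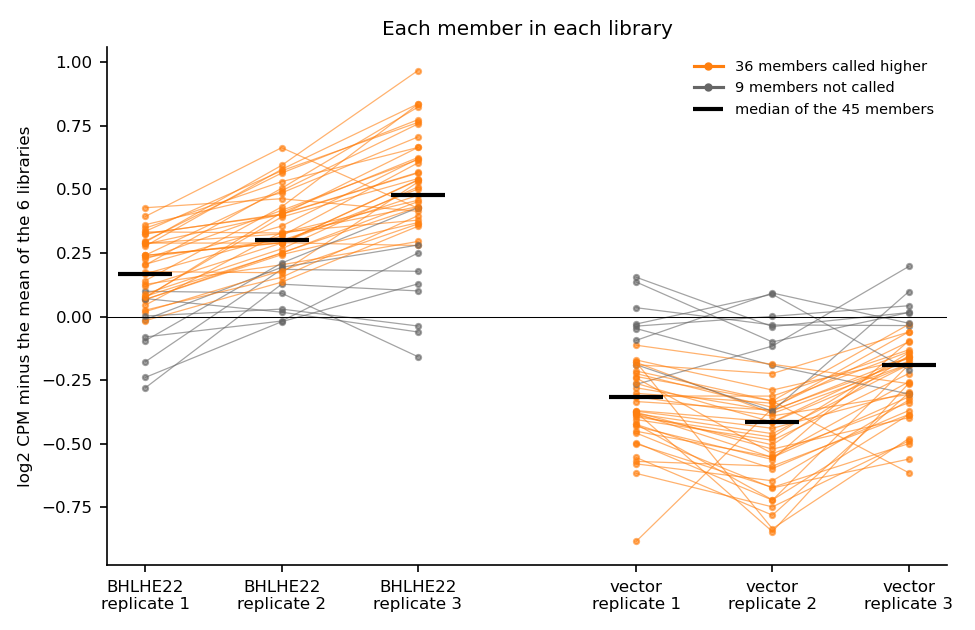
Level of each member in each library, as log2 CPM minus that gene's mean over the 6 libraries; thin lines join the values of 1 gene within a group, orange for the 36 genes called higher and grey for the 9 not called, and black bars are medians over the 45 genes. The medians are 0.17, 0.30 and 0.48 in BHLHE22 replicates 1 to 3, and -0.31, -0.41 and -0.19 in vector replicates 1 to 3.

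Some members are hosts of snoRNAs, which are cut from their introns. In the deposited table, 7 members overlap 25 snoRNA rows, some of which repeat a name: NOP56 with 5, NOP58 with 4, NCL and WDR43 with 3 each, DKC1 and TSR1 with 2 each and GNL3 with 6. Of these 7 hosts 6 rose, and GNL3 was not called, where 80.0% of all 45 members and 25.1% of all tested genes rose. The snoRNA rows themselves held 94 counts at most per host over all 6 libraries, too few to give levels of the snoRNAs.

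Other genes of ribosome biogenesis, listed by their role in the pathway with earlier results of these data known, were also higher on balance. Calls were higher for 68 of the 127 that were tested (53.5%) and lower for 3 (2.36%), against 25.1% and 24.3% of all tested genes. The remaining 56 were not called, and the median log2 fold change was 0.41. The small-subunit list had 25 of 42 higher (59.5%) and 0 lower. It was led by the helicase gene DDX47 at 38.1 ± 7.18 CPM in BHLHE22 and 14 ± 4.65 CPM in vector cells. UTP14A followed at 24.6 ± 7.76 and 11.0 ± 1.33 CPM in the same order (SD, n = 3 each). Without vector replicate 1, 16 of that list rose, against 19.7% of all tested genes in that setting. Without BHLHE22 replicate 3 and vector replicate 2 together 14 of that list did, against 18.1% of all tested genes. In the large-subunit list 30 of 52 rose (57.7%) and 1 fell. EBNA1BP2, a nucleolar assembly factor, had 93.1, 107 and 125 CPM in BHLHE22 libraries, against 34.8, 33.3 and 38.7 CPM in vector libraries. It had the largest rise of the pathway (log2 fold change 1.61, SE 0.13, adjusted p = 0.000137, edgeR). NOP53, which brings the RNA exosome to the pre-large subunit, went the other way, with 36.9, 46.2 and 33.1 CPM in BHLHE22 libraries, against 107, 79.9 and 80.4 CPM in vector libraries (log2 fold change -1.20, SE 0.16, adjusted p = 0.000976, edgeR).

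The RNA exosome, which trims rRNA from its 3′ end, was mixed. Of its 14 genes 5 rose (35.7%) and 2 fell (14.3%), against 25.1% and 24.3% of all tested genes. EXOSC9 and EXOSC5, of the inactive ring, rose by 1.29 and 0.90. Without BHLHE22 replicate 3 and vector replicate 2 together, EXOSC5 was not called (adjusted p = 0.0746, edgeR). In that setting 3 of the 14 rose, against 18.1% of all tested genes. Both genes that fell encode nucleases. DIS3 had 96.1, 94.6 and 89.8 CPM in BHLHE22 libraries, against 167, 184 and 168 CPM in vector libraries (log2 fold change -0.89, SE 0.08, adjusted p = 0.000209, edgeR). EXOSC10, the nuclear exonuclease, fell by 0.26 (adjusted p = 0.0264, edgeR). Its call ended without BHLHE22 replicate 2 or 3 or vector replicate 1 or 2 (adjusted p = 0.0816, 0.0788, 0.0560 and 0.0725, edgeR), without the low-count filter (0.0599) and with unscaled library sizes (0.243). Of 10 genes for snoRNP partners and assembly, 6 rose, led by NUFIP1 and NAF1, assembly factors of box C/D and box H/ACA particles (0.98 and 0.87). Of 9 other RNA polymerase I genes 2 rose (22.2%, near the 25.1% of all tested genes), POLR1E and POLR1F (1.07 and 0.82), the last listed under its older symbol TWISTNB. POLR1G, listed as CD3EAP, had 8.82, 11.8 and 31.1 CPM in BHLHE22 libraries, against 7.64, 7.07 and 8.52 CPM in vector libraries. These groups did not overlap, but BHLHE22 replicate 3 stood far above the others and the gene did not pass (log2 fold change 1.16, SE 0.49, adjusted p = 0.0944, edgeR); it was named after its values were seen. POLR1H, listed as ZNRD1, was at 0 in all 6 libraries and was not tested.

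**Figure D5:**
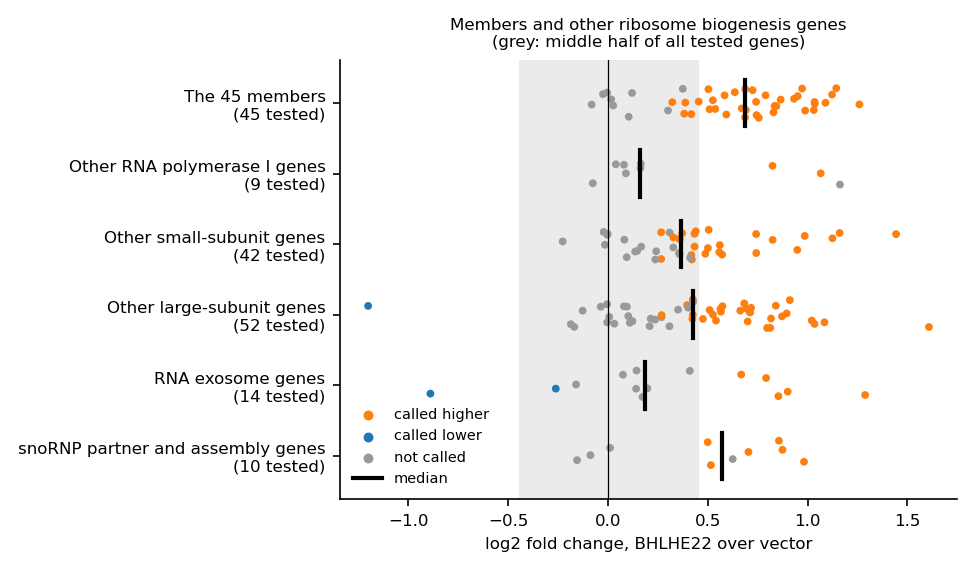
Log2 fold change (BHLHE22 over vector) of the 45 members and of the tested genes of 5 other lists of the pathway; each point is 1 gene, orange for called higher, blue for called lower and grey for not called, black bars are medians and the grey band runs from the lower to the upper quartile of all tested genes. The medians run from 0.16 for the other RNA polymerase I genes to 0.69 for the members, and the blue points are NOP53, DIS3 and EXOSC10.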

How the data were processed

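RNA of 6 PC-3 libraries was analysed, 3 per group. TRIzol extraction of total RNA and an NEB Ultra RNA library kit (spelled NEBNest there) are given per the labels' protocols. Among tools, the submitters' processing notes list StringTie 1.3.4b, HISAT2 2.1.0, edgeR and CASAVA 1.8, and GRCh38 as the build. What each tool did, and how reads were assigned to genes, is not given in the sources used here. The authors deposited 1 table with whole-number counts per gene and FPKM values per library. The FPKM equal count over library total and a length fixed for each gene, the same in all libraries within 0.1% for 100% of 26866 genes. That length was not compared with the exonic bases of the gene. Columns headed control were taken as vector.

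Genes kept by filterByExpr (15945, with 99.8% of counts) were scaled by TMM and tested with edgeR 4.0.16 (R 4.3.3), group as the only term, 2-sided. The CPM values use TMM-scaled library sizes. SE is the log2 fold change over the square root of F. The procedure was tested on simulated data. The members, the lists and the rule for named genes were chosen with earlier results of these data known. By that rule values in every library are given for the 2 largest changes of each role and for members at the ends of the FPKM range; among other pathway genes each list names its 2 largest called changes and those against its majority. Replicate values of other named members were added after they were seen. Alternatives were a replicate block, DESeq2 size factors, unscaled libraries, DESeq2 1.42.0, limma-voom (limma 3.58.1), other filters, a stricter threshold and leaving out libraries. RefSeq start windows were matched by symbol. Exon sharing uses GENCODE 29 and genes with at least 10% of a member's counts. EMG1 has 2 rows in the table, and the one with more counts was used.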

Additional observations from a re-analysis of the deposited data

How the results depend on the processing

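The 16 alternatives left 0 members called lower, and 31 of the 36 rises were called in every one. The count of members higher was 35 with the replicate number as a block, 36 with DESeq2, limma-voom, DESeq2 size factors, a 1 CPM filter or pseudogene reads added, 37 without the low-count filter, 38 with unscaled library sizes and 32 at an adjusted p under 0.01. It was 32 to 37 when 1 library was left out, against 19.6% to 24.1% of all tested genes. Among all tested genes, 23.1% were higher with the block and 23.1% to 25.7% in the settings with 36 members. Shares were 12.5% without the low-count filter, 32.2% with unscaled library sizes and 15.6% at an adjusted p under 0.01. The member median was 0.60 to 0.74 when 1 library was left out and 0.83 with unscaled library sizes. Over all genes, 2480 were higher and 2482 lower at an adjusted p under 0.01, against 3996 and 3880 at 0.05; the stricter threshold itself sets this. Replicate numbers did not pair the libraries: the deviations of same-numbered libraries correlated at 0.0054, -0.027 and 0.010, and the block ended the call of RRP12 alone among members.

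Of the 9 members not called, GAR1, NOP2, HEATR1 and NOP14 stayed above 0 under every alternative, and the other 5 changed sign. With unscaled library sizes POLR1C, UBTF and GNL3 had log2 fold changes of 0.12, 0.064 and 0.14. GNL3 was at 0.012 without the low-count filter and at 0.012 without BHLHE22 replicate 3 and vector replicate 2 together. When 1 library was left out, the range was -0.085 to 0.10 for POLR1C, -0.16 to 0.019 for UBTF, -0.020 to 0.023 for GNL3, -0.0086 to 0.11 for NOP10 and -0.021 to 0.071 for NOB1. For these 5 genes the direction cannot be read at this depth and spread; the cause was not tested. Strand and pseudogene reads limit the members named with them. Opposite-strand exons also cover 3.86% of the exonic bases of UTP15, 1.23% of those of UTP4 and 0.151% of those of GNL3. The 2 named pseudogenes of NHP2 held 8.66% as many reads as the gene. With named pseudogene reads added, NHP2 had a log2 fold change of 0.55 (adjusted p = 0.00153, edgeR).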
